A study of Homo sapiens with 24 samples.

Results

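Mitochondrial ribosomal proteins were followed across 8 populations of triple-negative breast cancer cells. They were taken as the genes whose symbol in the expression tables is MRPL or MRPS with a number and at most a letter A, B or C. This gave 76 of 29744 genes, 47 named for the large subunit and 29 for the small subunit. RNA had been read by TAGseq, which sequences tags from the 3′ ends of polyadenylated transcripts, after 48 hours of growth. In each of HCC1806 and MDA-MB-231, established lines of that disease, 3 populations had undergone whole-genome doubling after cells fused, after slippage out of mitosis without division, or after cytokinesis failed. These had been isolated by FACS and expanded. They were set against the parental population of the same line, the control, and every group held 3 replicates, 24 libraries in all. The labels name 1 population per route and line, so a route and its population cannot be told apart, and p-values measure the spread between replicates of that population.

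The mitochondrial ribosome translates the few proteins that mitochondrial DNA encodes, all of them parts of the respiratory chain and ATP synthase. Its RNAs are made in the mitochondrion, whereas its proteins are encoded by nuclear genes on many chromosomes, translated in the cytosol and imported. The large subunit forms peptide bonds and the small subunit decodes messenger RNA. Some of its proteins have a counterpart in the bacterial ribosome, and others are specific to mitochondria. Here 29 large and 18 small subunit members were of the bacterial kind, 17 large and 10 small subunit members of the mitochondrial kind, and MRPL55 and MRPS36 were not assigned. Structures place MRPS30 and MRPS18A in the large subunit and MRPS36 in neither subunit, but the subunits are given here by gene name.

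Transcription of these nuclear genes is known to use GABPA (NRF-2, an ETS factor), NRF1 and YY1. Of the 76 members, 67 matched a promoter sequence of RefSeq on GRCh38.p14. The ETS core CCGGAA, on either strand, was present in the 250 bases before the start of 30 of 67 members (44.8%). The same letters were present in 27.8% of 7864 promoters of genes tested in both lines and in 14.8% of all 27305 promoters. The NRF1 core TGCGCA was present in 12 members (17.9%), against 12.6% and 7.05% of those promoters. The YY1 core ATGGCGG was present in 5 members (7.46%), all named for the large subunit, against 4.25% and 2.83%. A match is a description of letters and not a binding site. The windows of MRPL38 (chr17:75904885-75905134, minus strand), MRPL20 (chr1:1407294-1407543, minus strand) and MRPL33 (chr2:27771469-27771718, plus strand) are shown because these members had the smallest adjusted p for a difference between the lines in their change with fusion. They are written 5′ to 3′ along the gene, in lower case, with matches to the ETS core or its complement in capitals.
MRPL38: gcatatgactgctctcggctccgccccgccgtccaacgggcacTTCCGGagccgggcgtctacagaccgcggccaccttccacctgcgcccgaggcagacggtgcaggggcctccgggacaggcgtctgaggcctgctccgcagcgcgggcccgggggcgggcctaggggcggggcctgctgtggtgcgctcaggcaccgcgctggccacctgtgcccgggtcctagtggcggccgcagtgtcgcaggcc
MRPL20: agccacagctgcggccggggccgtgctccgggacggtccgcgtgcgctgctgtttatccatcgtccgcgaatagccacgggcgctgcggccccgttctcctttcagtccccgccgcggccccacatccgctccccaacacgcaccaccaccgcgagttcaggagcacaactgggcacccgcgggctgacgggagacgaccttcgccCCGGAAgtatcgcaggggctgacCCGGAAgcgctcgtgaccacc
MRPL33: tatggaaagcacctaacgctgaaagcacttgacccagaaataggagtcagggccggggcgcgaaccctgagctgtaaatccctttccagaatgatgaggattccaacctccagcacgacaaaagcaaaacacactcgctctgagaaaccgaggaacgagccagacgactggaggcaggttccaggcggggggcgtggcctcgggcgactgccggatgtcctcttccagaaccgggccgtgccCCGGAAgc
MRPL20 held 2 matches, and MRPL38 and MRPL33 held 1 each. None of the 3 windows held the NRF1 or YY1 letters.

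Libraries held 2455707 to 4030297 estimated counts, and the members took 0.823% to 0.879% of them in HCC1806 and 0.713% to 0.764% in MDA-MB-231. All 76 members passed the filter on low counts in each fit, and the lowest count of a member in any library was 11. By RefSeq positions 20 members overlap another gene of the tables and 41 have a numbered pseudogene, which limits how surely reads were assigned to them. Replicates varied by a common biological coefficient of variation of 3.88% (HCC1806) and 5.28% (MDA-MB-231). Slippage replicate 3 and cytokinesis failure replicate 1 of MDA-MB-231 stood apart from their replicates, so results in that line are also given without them. The labelled lines matched most of their usual markers. The mesenchymal gene VIM had at most 7 counts in HCC1806 and at least 7598 in MDA-MB-231. The basal keratin KRT5 had at least 1135 counts in HCC1806 and at most 1 in MDA-MB-231. Among mesenchymal markers, CDH2 went the other way, with 79 to 170 counts in HCC1806 and 1 to 5 in MDA-MB-231. SPARC, also mesenchymal, had 0 counts in HCC1806 and at most 4 in MDA-MB-231. Of 7 immune markers CD68 alone passed the filter, and CD3E had no count in any library. The summed immune markers in MDA-MB-231 were 99.8 ± 9.50 CPM in fusion, 110.0 ± 1.37 CPM in slippage, 113 ± 8.33 CPM in cytokinesis failure and 71.7 ± 4.42 CPM in control cells (SD, n = 3 each). The summed 7 basal markers in HCC1806 were 1431 ± 32.0, 1414 ± 26.4, 1338 ± 29.2 and 1570.5 ± 44.5 CPM in the same order of groups. In HCC1806 the mesenchymal markers summed to 49.2 ± 4.45, 61.4 ± 3.04, 65.7 ± 1.69 and 75.2 ± 0.688 CPM and the fibroblast markers, 2 of 7 tested, to 10.8 ± 2.15, 22.1 ± 1.55, 21.3 ± 0.428 and 26.3 ± 5.98 CPM, while COL1A2 had no count in either line. The part of these shifts in the results was not tested. In bulk RNA, fewer cells with a transcript and less of it per cell cannot be told apart, and values per library total do not show RNA per cell.

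Levels within a gene are given as CPM, counts scaled to library size and adjusted by the trimmed mean of M values (TMM) within a line, and levels between genes as the deposited TPM, which divide by transcript length. In parental HCC1806, MRPL33, a large subunit protein with a bacterial counterpart, was highest per length at 1109 ± 58.4 TPM, ahead of MRPL20 at 705 ± 14.3 TPM and MRPL36 at 586 ± 52.7 TPM (SD, n = 3 each). The median member stood at 74.4 TPM, and MRPL23 was lowest at 7.58 ± 1.11 TPM. In parental MDA-MB-231, MRPL51 at 589 ± 23.5 TPM and MRPL33 at 557 ± 28.3 TPM led and lay within about their spread of each other, the median was 73.8 TPM, and MRPL19 was lowest at 11.1 ± 0.722 TPM. Tags come from transcript ends, so the order between genes rests on the division by length. Over the 8 groups, a member's highest group mean was 1.13 to 3.13 times its lowest, with a median ratio of 1.56. MRPS21, a small subunit protein, had the widest range, at 196 ± 11.4 CPM in HCC1806 fusion cells and 62.6 ± 4.72 CPM in MDA-MB-231 slippage cells, scaled over all 24 libraries. MRPS18A had the narrowest, at 92.3 ± 0.902 CPM in HCC1806 fusion cells and 81.9 ± 8.08 CPM in MDA-MB-231 cytokinesis failure cells. HCC1806 groups held the highest mean of 51 members, fusion alone of 25, and MDA-MB-231 cytokinesis failure held the lowest mean of 30.

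Summed over its members, the large subunit stood in HCC1806 at 5591 ± 45.2 CPM after fusion, 5440.4 ± 14.9 CPM after slippage and 5224 ± 132 CPM after cytokinesis failure, against 5330.4 ± 59.7 CPM in control cells (SD, n = 3 each). The small subunit stood at 3261 ± 26.1, 3247 ± 34.4 and 3124 ± 50.2 CPM, against 3181 ± 39.8 CPM. In MDA-MB-231 the large subunit stood at 4688 ± 89.2, 4369.7 ± 56.7 and 4284 ± 54.1 CPM, against 4505 ± 38.6 CPM, and the small subunit at 3049.7 ± 68.8, 2867 ± 61.0 and 2852 ± 35.1 CPM, against 2998 ± 31.8 CPM. The order changed with the unit: in TPM the HCC1806 cytokinesis failure sum of the large subunit was 7519.6 ± 145, against 7327 ± 356 in control cells, and the MDA-MB-231 fusion sum was 6063 ± 95.1, against 6147 ± 38.5 in control cells. No sum was tested, and within each line both subunits had the same order of groups in CPM.

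In fused HCC1806 cells several large subunit transcripts were slightly higher. A call is an adjusted p below 0.05 in edgeR's quasi-likelihood F-test over all genes tested, and changes are log2 values given with a standard error. Of 76 members, 9 rose and 3 fell, where 10.9% of all 11467 genes were called, 5.33% higher and 5.55% lower. The large subunit had 7 higher and 2 lower of 47, with a median of 0.092. The small subunit had 2 higher and 1 lower of 29, with a median of 0.062, beside -0.0031 for all genes, and 54 of 76 members had a positive value. Among large subunit members, 4 of 17 of the mitochondrial kind rose and 0 fell, and 2 of 29 of the bacterial kind rose and 2 fell.

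MRPL41, a large subunit protein of the mitochondrial kind, had 103, 114 and 98.1 CPM in fusion cells, against 79.7, 85.2 and 90.5 CPM in control cells. All fusion libraries lay above all control libraries, and the rise was 0.30 ± 0.074 (adjusted p = 0.00222). MRPL43, of the same kind, had 154, 159.6 and 151 CPM in fusion cells, against 136, 121 and 137 CPM in control cells, again without overlap (0.23 ± 0.061, adjusted p = 0.00521). MRPL43 overlaps SEMA4G in the annotation, and the strand setting of the counting is not given, so its counts are uncertain. Of the small subunit, MRPS28 (0.27 ± 0.084) and MRPS21 (0.18 ± 0.059) rose, and RefSeq lists 9 pseudogenes of MRPS21, which makes its counts uncertain too. The large subunit members MRPL38 (0.32 ± 0.084), MRPL55 (0.25 ± 0.078), MRPL30 (0.17 ± 0.057), MRPL11 (0.17 ± 0.057) and MRPL52 (0.15 ± 0.053) rose as well. MRPL30, MRPL11 and MRPL52 lay close to the threshold, with adjusted p of 0.0431, 0.0440 and 0.0471.

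MRPS12, a protein of the decoding site with a bacterial counterpart, was lower. It had 192, 184 and 185 CPM in fusion cells, against 208, 234 and 204 CPM in control cells, with no overlap, and fell by 0.20 ± 0.055 (adjusted p = 0.00755). The large subunit members MRPL20 and MRPL17 fell by 0.14 ± 0.045 and 0.18 ± 0.058. MRPL23 had the largest value that was not called (0.34 ± 0.31, adjusted p = 0.559). Without control replicate 2, control replicate 3, fusion replicate 2 or fusion replicate 3, the called members numbered 6, 6, 4 and 5. The calls of MRPL41 (0.24, adjusted p = 0.0618) and MRPL38 (0.27, adjusted p = 0.0648) were lost without fusion replicate 2, and that of MRPS12 (-0.14, adjusted p = 0.122) without control replicate 2. That of MRPL43 was lost without either of them (0.20, adjusted p = 0.0556, and 0.18, adjusted p = 0.0928). Over 16 alternatives, MRPL55 lost its call under 8, MRPS28, MRPS21 and MRPL17 under 7 each and MRPL20 under 5. Library totals in place of TMM gave 5 higher and 3 lower, and limma on TPM gave 0 higher and 2 lower.

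**Figure D1:**
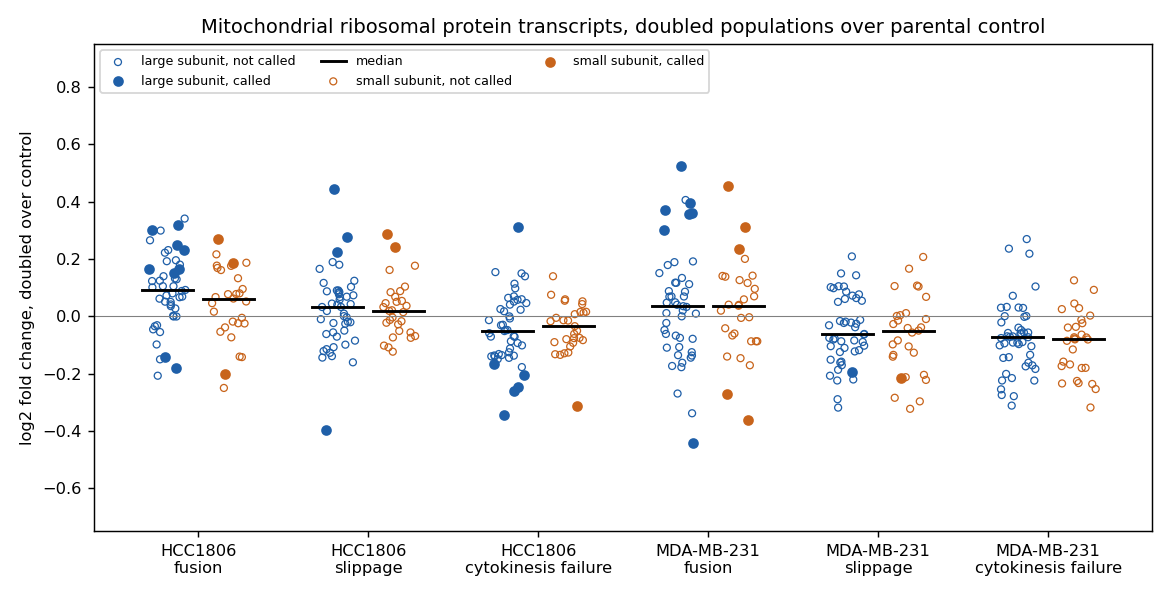
Log2 fold change of each member, doubled population over the parental control of its line, for the 3 routes in both lines. Points are members, apart by subunit and filled where called, and lines are medians, which run from -0.080 for the small subunit after MDA-MB-231 cytokinesis failure to 0.092 for the large subunit after HCC1806 fusion.

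HCC1806 cells doubled by mitotic slippage had 5 members higher and 1 lower, where 3.33% of all genes were called, 1.53% higher and 1.81% lower. The large subunit had 3 higher and 1 lower of 47, with a median of 0.033. The small subunit had 2 higher and 0 lower of 29, with a median of 0.019, beside 0.0018 for all genes. On log2(TPM + 0.1) these subunit medians were -0.0075 and -0.011, and the median of all genes on that scale is not given here. MRPL33 had 269, 250.3 and 254 CPM in slippage cells, against 216, 218 and 227 CPM in control cells. The groups did not overlap, and it rose by 0.22 ± 0.051 (adjusted p = 0.00311). The small subunit members MRPS22 (0.24 ± 0.068) and MRPS31 (0.29 ± 0.083), both of the mitochondrial kind, rose, as did MRPL41 (0.28 ± 0.074) and MRPL38, described further on.

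MRPL10, at the base of the large subunit's stalk that binds elongation factors, was lower. It had 27.5, 30.3 and 32.0 CPM in slippage cells, against 43.5, 35.8 and 38.3 CPM in control cells, and fell by 0.40 ± 0.12 (adjusted p = 0.0353). Its slippage libraries all lay below its control libraries. The count of 6 became 2 when control replicate 1 was left out, and 3 when control replicate 3, slippage replicate 1 or slippage replicate 2 was. MRPL33 was no longer called without slippage replicate 1 (0.19, adjusted p = 0.0627). Of 16 alternatives tried, MRPS31 lost its call under 9, MRPL41 and MRPL10 under 8 each and MRPS22 under 7. For MRPS31 these included leaving out each control or slippage library in turn. DESeq2 called 2 higher and 0 lower, while on log2(TPM + 1) limma called 1 higher and 0 lower.

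After cytokinesis failure, HCC1806 cells had 1 member higher and 6 lower, where 17.0% of all 11467 genes were called, 8.37% higher and 8.63% lower. The large subunit had 1 higher and 5 lower of 47, with a median of -0.051. The small subunit had 0 higher and 1 lower of 29, with a median of -0.034. On log2(TPM + 1) these medians were -0.0030 and 0.026, and the median of all genes is not given here for either scale. MRPS2, a small subunit protein with a bacterial counterpart, had 67.7, 69.4 and 67.4 CPM in cytokinesis failure cells, against 84.9, 88.2 and 81.5 CPM in control cells. The groups lay well apart, and it fell by 0.31 ± 0.073 (adjusted p = 0.000843), a call kept under all 16 alternatives tried.

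MRPL20 had 325, 359.6 and 356 CPM in cytokinesis failure cells, against 377, 419 and 404 CPM in control cells, and fell by 0.21 ± 0.045 (adjusted p = 0.000392) without overlap. MRPL9 fell by 0.26 ± 0.076, MRPL10 by 0.34 ± 0.11, MRPL46 by 0.25 ± 0.083 and MRPL1, of the stalk beside the exit site of transfer RNA, by 0.17 ± 0.059. The other genes tested on 4q, the arm of MRPL1, had a median of -0.16. Across all 76 members, however, the change and the median of the arm had Pearson's r = -0.0029 and Spearman's rho = -0.11. The part of the arm in the change of MRPL1 was not tested. MRPL9 overlaps OAZ3 in the annotation, and RefSeq lists an antisense gene, MRPL20-AS1, at MRPL20. Without cytokinesis failure replicate 1, 4 members were called. MRPL46 lost its call under 7 of 16 alternatives, MRPL1 under 6, MRPL10 under 5, MRPL20 under 2 and MRPL9 under 1. DESeq2 gave 1 higher and 2 lower, and so did limma on TPM.

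Of the 76 members MRPL38 was the only one called after all 3 routes in HCC1806. This large subunit protein of the mitochondrial kind had 76.7, 78.4 and 66.4 CPM in fusion, 77.3, 79.9 and 84.8 CPM in slippage and 80.9, 75.9 and 64.0 CPM in cytokinesis failure cells, against 59.0, 56.7 and 61.6 CPM in control cells. Every doubled library lay above every control library, the closest being cytokinesis failure replicate 3. The rise was 0.32 ± 0.084 with fusion (adjusted p = 0.00509), 0.44 ± 0.082 with slippage (adjusted p = 0.000119) and 0.31 ± 0.081 with cytokinesis failure (adjusted p = 0.00326). These comparisons share their controls, and the share of all genes called after all 3 routes is not given here. The call with cytokinesis failure was lost without cytokinesis failure replicate 1 (0.24, adjusted p = 0.0683), and that with slippage was kept without each control or slippage library in turn. Over the 6 comparisons with control, 29 of 76 members were called at least once and 47 in none, where 38.0% of the 10369 genes tested in both lines were called at least once. In HCC1806 20 were called, where 24% of all genes were called at least once, and in MDA-MB-231 14, where 22.7% were.

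**Figure D2:**
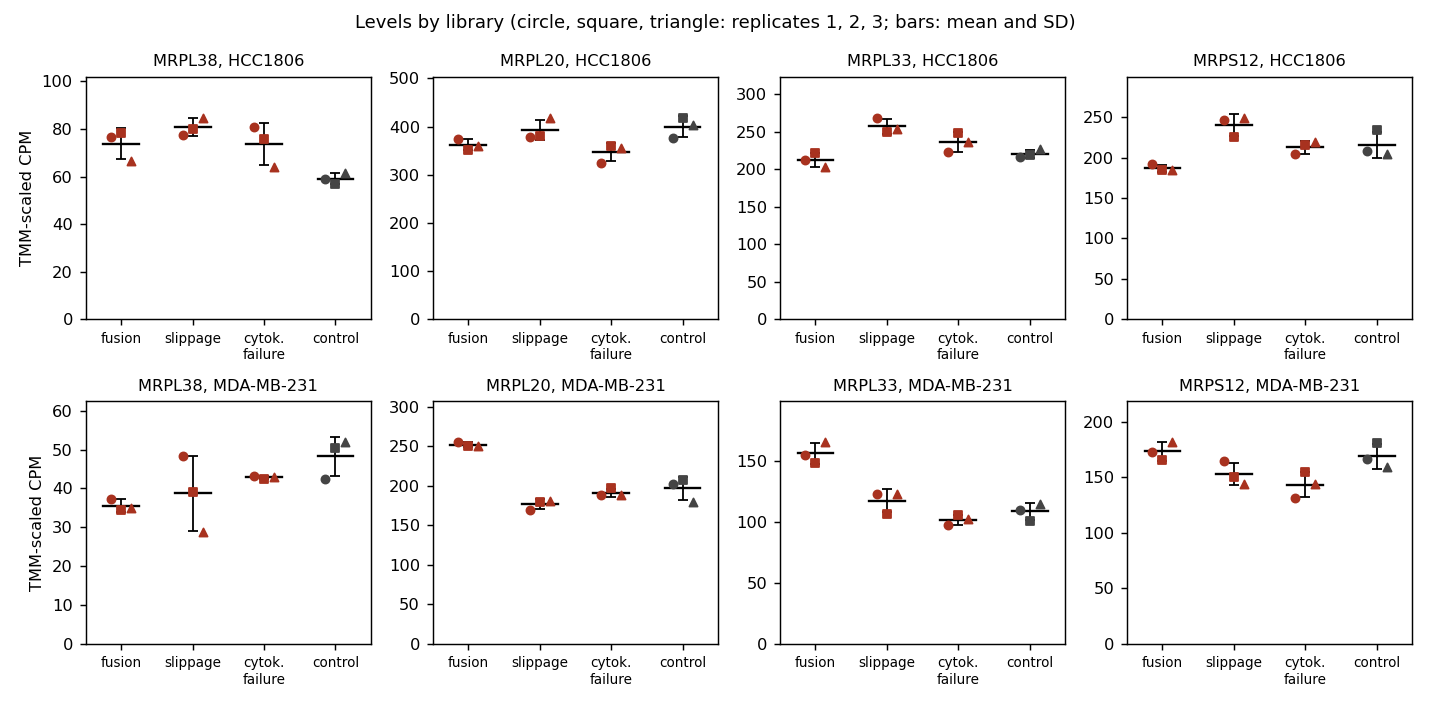
TMM-scaled CPM of MRPL38, MRPL20, MRPL33 and MRPS12 in each library of both lines, doubled populations left of the control. Points are libraries (3 per group) and bars the mean and SD. MRPL38 lies above control in all doubled HCC1806 libraries, and MRPL20 and MRPL33 are highest after fusion in MDA-MB-231.

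Among the 3 doubled HCC1806 populations, tested against each other with 2 degrees of freedom, 22 members differed (16 large, 6 small), where 20.2% of all genes did. MRPS12 had the smallest adjusted p (7.06e-07), at 187 ± 4.32 CPM in fusion, 240.2 ± 13.1 CPM in slippage and 213 ± 8.17 CPM in cytokinesis failure cells (SD, n = 3 each). MRPL33 was highest after slippage, at 258 ± 9.97 CPM, with 212 ± 9.84 CPM after fusion and 236 ± 13.0 CPM after cytokinesis failure. MRPS31 was lowest after cytokinesis failure, at 53.1 ± 1.74 CPM, with 67.4 ± 7.29 CPM after fusion and 70.8 ± 1.39 CPM after slippage. MRPL1, MRPL9 and MRPL43 also differed (largest adjusted p = 0.000697). The count was 14 without fusion replicate 3 and 12 without cytokinesis failure replicate 1.

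Fused MDA-MB-231 cells had members that moved in both directions. Of 76, 9 rose and 3 fell, where 17.4% of all 11424 genes were called, 9.34% higher and 8.11% lower. The large subunit had 6 higher and 1 lower of 47 (median 0.035) and the small subunit 3 higher and 2 lower of 29 (median 0.037), beside -0.0025 for all genes. The split depended on scaling: library totals gave 8 higher and 7 lower, whereas on log2(TPM + 1) limma called 6 higher and 10 lower. On that TPM scale the medians were -0.077 for the large and -0.089 for the small subunit, and -0.11 for all genes. DESeq2 gave 8 higher and 1 lower. Without both libraries that stood apart, 10 were higher and 4 lower. The shares of all genes called higher and lower under these alternatives are not given here, nor is the median of all genes with library totals.

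MRPL33 had 155, 148 and 166 CPM in fusion cells, against 110.0, 101 and 115 CPM in control cells. Its groups lay far apart, and the rise of 0.52 ± 0.072 (adjusted p = 5.73e-07) was called under all 17 alternatives. MRPL20 had 256, 251 and 250.3 CPM in fusion cells, against 202.8, 208 and 179.9 CPM in control cells, and rose by 0.36 ± 0.060 (adjusted p = 2.17e-05), also under all 17. MRPS28, of the small subunit, had 62.0, 54.8 and 54.6 CPM in fusion cells, against 39.6, 45.1 and 40.4 CPM in control cells (0.46 ± 0.10, adjusted p = 0.00123). For both of these every fusion library lay above every control library. MRPL48 (0.39 ± 0.091), MRPL15 (0.37 ± 0.087) and the small subunit members MRPS33 (0.31 ± 0.088) and MRPS24 (0.23 ± 0.059) rose as well.

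MRPL38 was lower here, with 37.4, 34.4 and 35.1 CPM in fusion cells, against 42.5, 50.4 and 52.0 CPM in control cells. The groups did not overlap, and it fell by 0.44 ± 0.13 (adjusted p = 0.0119). It lost the call when control replicate 2 (-0.41, adjusted p = 0.0553), control replicate 3 (-0.38, adjusted p = 0.0827) or fusion replicate 2 (-0.42, adjusted p = 0.0566) was left out. After the other routes in this line MRPL38 had 48.3, 39.1 and 28.9 CPM in slippage and 43.2, 42.3 and 43.0 CPM in cytokinesis failure cells (-0.32 ± 0.12 and -0.17 ± 0.12, neither called), and its slippage libraries overlapped the control libraries. The small subunit members MRPS26, of the mitochondrial kind (-0.36 ± 0.10), and MRPS11, of the bacterial kind (-0.27 ± 0.092), also fell. MRPL23 again had the largest value not called (0.41 ± 0.23, adjusted p = 0.237), and it overlaps H19 in the annotation.

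The changes of members in fused MDA-MB-231 cells were also set beside those of the other genes on their chromosome arm. Arms came from RefSeq positions on GRCh38.p14, and the arm value is the median change of the other tested genes. Across the 76 members on 30 arms, the member's change and its arm's median had Pearson's r = 0.59 and Spearman's rho = 0.61. This is a description, since members of an arm share its median and all members share the same libraries. In the other 5 comparisons with control r was at most 0.19 and rho at most 0.27. The 304 other genes of 2p had a median of 0.28, and MRPL33, MRPL53 (0.36 ± 0.079) and MRPL19 (0.30 ± 0.10) lie there and rose. MRPL35, the remaining 2p member, had -0.14 ± 0.090 and was not called. MRPS26 lies on 20p, whose 105 other genes had a median of -0.21. MRPL20 on 1p and MRPS28 and MRPL15 on 8q rose while the medians of their arms were -0.049 and -0.0078. Of the 12 called members, 9 had the sign of their arm. The low-pass genome sequencing of these populations was not analysed here, so gene copies were not measured.

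**Figure D3:**
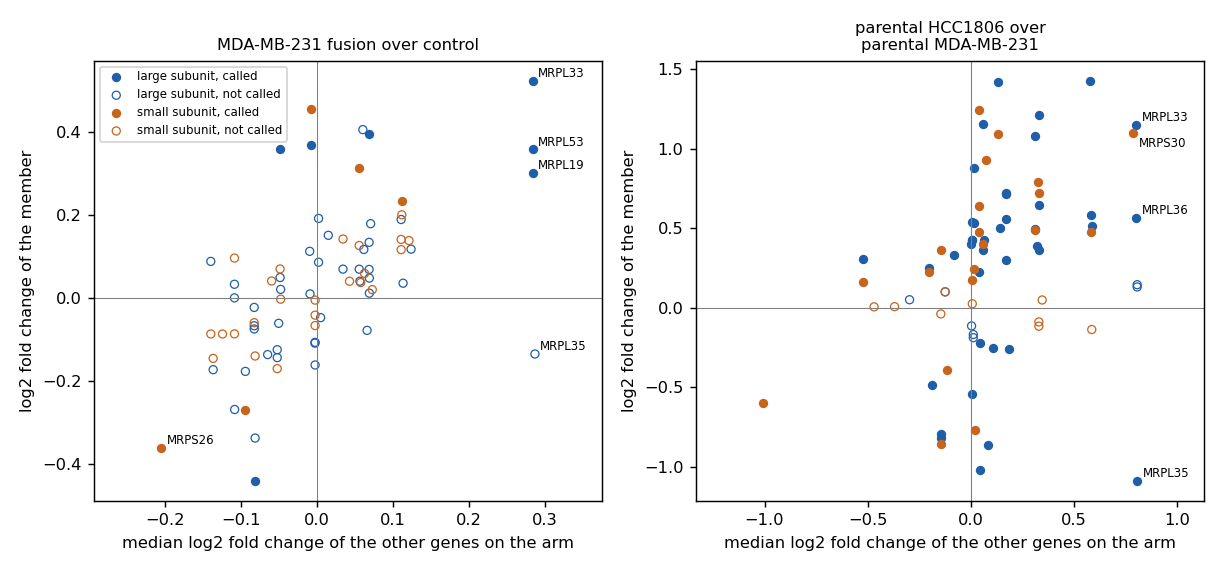
Log2 fold change of each member against the median of the other tested genes on its chromosome arm, for MDA-MB-231 fusion over control and for parental HCC1806 over parental MDA-MB-231. Points are members, filled where called, and some are named. In the fusion panel MRPL33, MRPL53 and MRPL19 of 2p lie at the upper right and MRPS26 of 20p at the lower left.

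Most members had small negative values after mitotic slippage in MDA-MB-231. There 0 rose and 2 fell, where 6.18% of all genes were called, 3.27% higher and 2.91% lower, and 16 of 76 had an unadjusted p below 0.05, as 18.8% of all genes did. MRPS5 of the small subunit had 121, 118 and 128 CPM in slippage cells, against 144, 146 and 135 CPM in control cells (-0.21 ± 0.067, adjusted p = 0.0455), with no overlap. MRPL52 of the large subunit also fell (-0.19 ± 0.061, adjusted p = 0.046). The medians were -0.063 for the large and -0.050 for the small subunit, beside 0.0013 for all genes, and 23 of 76 values were positive. Without control replicates 1, 2 and 3 in turn the counts were 0, 0 and 1. Without slippage replicates 1, 2 and 3 in turn they were 3, 1 and 1. The member called without control replicate 3 or slippage replicate 2 was neither MRPS5 nor MRPL52. Without both libraries that stood apart the count was 2, with MRPS5 called and MRPL52 not. MRPS5 and MRPL52 were each lost under 10 of 17 alternatives.

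After cytokinesis failure in MDA-MB-231, edgeR called 0 of 76 members and DESeq2 0, where 4.64% of all genes were called, 2.29% higher and 2.35% lower, and 17 members had an unadjusted p below 0.05, as 16.9% of all genes did. The medians were -0.073 for the large and -0.080 for the small subunit, beside -0.0017 for all genes, and 59 of 76 values were negative. Without both libraries that stood apart, 0 were higher and 6 lower, but the share of all genes called in that fit is not given here. Without control replicate 2 the count was 1, and without cytokinesis failure replicates 1, 2 and 3 in turn it was 2, 2 and 1.

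The 3 doubled MDA-MB-231 populations differed among themselves in 22 members (14 large, 8 small), where 25.2% of all genes differed. MRPL20 had the smallest adjusted p (1.95e-08), at 252 ± 3.05 CPM in fusion, 177 ± 6.14 CPM in slippage and 191 ± 5.19 CPM in cytokinesis failure cells (SD, n = 3 each). MRPL33 followed (adjusted p = 3.41e-08), at 156 ± 8.70, 117 ± 9.45 and 102 ± 4.20 CPM in the same order. MRPL15, MRPL48, MRPS24 and MRPL22 were next (largest adjusted p = 0.000188), each highest after fusion.

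The change of 8 members with a route differed between the lines by a test of the difference itself, HCC1806 minus MDA-MB-231, in a fit of all 24 libraries. For fusion 3 were higher and 2 lower in HCC1806, where 12% of all 12563 genes differed, 5.48% higher and 6.57% lower. MRPL38 differed by 0.76 ± 0.15 (adjusted p = 0.000206), from 0.32 in HCC1806 and -0.44 in MDA-MB-231. MRPL33 differed by -0.58 ± 0.089 and MRPL20 by -0.51 ± 0.076, and MRPL55 by 0.52 ± 0.13 and MRPL30 by 0.34 ± 0.095. For slippage 3 members were higher and 0 lower, where 3.54% of genes differed, 1.66% higher and 1.88% lower. These were MRPL38 by 0.76 ± 0.15, MRPS12 by 0.30 ± 0.088 and MRPL52 by 0.26 ± 0.080. For cytokinesis failure 2 were higher and 0 lower, where 6.53% differed, 3.31% higher and 3.22% lower. These were MRPL38 by 0.49 ± 0.15 (adjusted p = 0.026) and MRPL11 by 0.30 ± 0.097. MRPL38 was the only member whose change differed for every route, and the share of all genes that did so is not given here. The 3 differences of MRPL38 share their control libraries. Its differences for fusion and slippage were called under all 22 alternatives tried, and that for cytokinesis failure under 10 of 22. The slippage count was 5 without MDA-MB-231 slippage replicate 1, and 1 without HCC1806 control replicate 1, HCC1806 slippage replicate 3, or MDA-MB-231 control replicate 1, control replicate 2, slippage replicate 2 or slippage replicate 3. The cytokinesis failure count was 0 without HCC1806 control replicate 1, HCC1806 cytokinesis failure replicate 2 or MDA-MB-231 control replicate 2 or 3. It was 1 without each of the other 8 libraries. Without MDA-MB-231 cytokinesis failure replicate 3 the called member was neither MRPL38 (0.49, adjusted p = 0.0506) nor MRPL11 (0.25, adjusted p = 0.153).

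Between the parental lines, most members differed, and more of them were higher in HCC1806. Of 76, 46 were higher and 14 lower in HCC1806 than in MDA-MB-231, where 76.2% of all genes were called, 38.8% higher and 37.4% lower. The large subunit had 30 higher and 10 lower of 47 (median 0.37) and the small subunit 16 higher and 4 lower of 29 (median 0.17), beside 0.0071 for all genes. With library totals the split was 39 higher and 20 lower, with medians of 0.23 and 0.042, and of -0.12 for all genes. With limma on log2(TPM + 1) it was 37 higher and 20 lower, with medians of 0.22 and 0.067, and of -0.12 for all genes. Both subunit medians lay above that of all genes on each of these scales.

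MRPL3, a protein near the peptidyl transferase centre with a bacterial counterpart, had 251, 272 and 239.8 CPM in HCC1806, against 84.5, 88.3 and 109.6 CPM in MDA-MB-231, scaled over all 24 libraries. Its libraries did not overlap, at a difference of 1.43 ± 0.074 (adjusted p = 1.24e-23). MRPL28 (1.42 ± 0.12), MRPS21 (1.25 ± 0.073), MRPL13 (1.21 ± 0.054), MRPL20 (1.15 ± 0.054) and MRPL33 (1.15 ± 0.064) were also higher in HCC1806. MRPL35 had 39.3, 38.6 and 36.4 CPM in HCC1806, against 79.0, 88.6 and 75.5 CPM in MDA-MB-231, a difference of -1.09 ± 0.099 (adjusted p = 5.96e-17) with no overlap. MRPL24 (-1.02 ± 0.075), MRPL23 (-0.86 ± 0.28), MRPS10 (-0.85 ± 0.055), MRPL14 (-0.82 ± 0.063) and MRPL2 (-0.79 ± 0.10) were lower in HCC1806. All 12 of these calls held under all 16 alternatives. MRPL24 overlaps HDGF in the annotation, and RefSeq lists 4 pseudogenes of MRPL35.

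**Figure D4:**
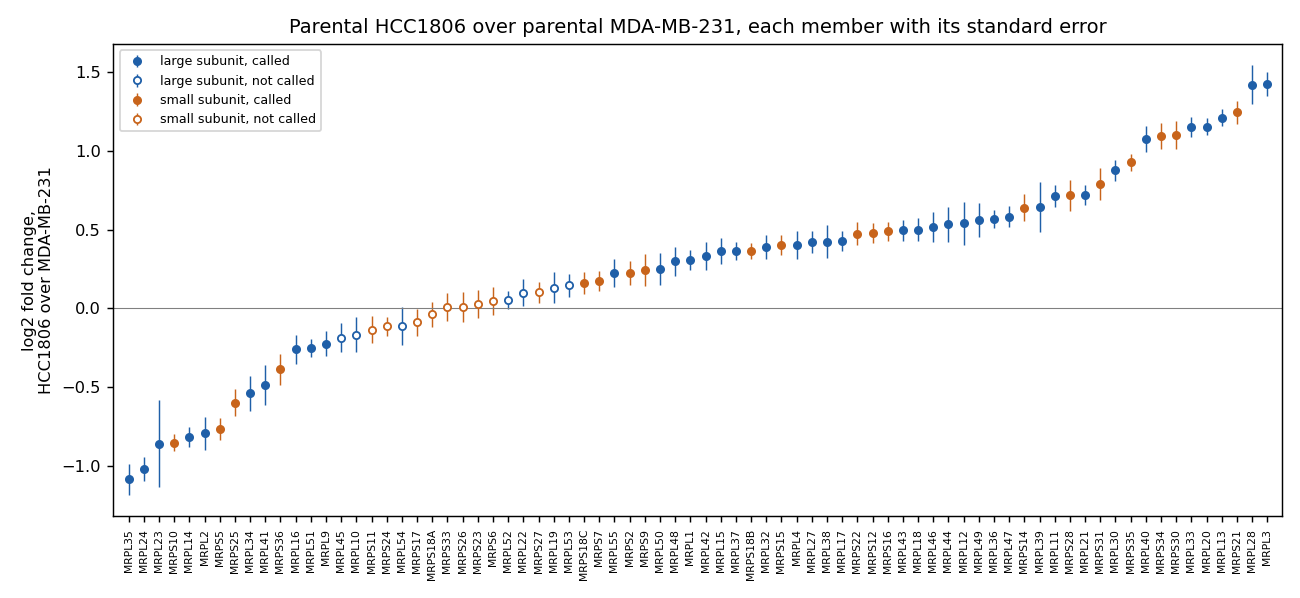
Log2 fold change of each of the 76 members, parental HCC1806 over parental MDA-MB-231, with standard errors (3 libraries per line) and filled points where called. Values run from -1.09 for MRPL35 to 1.43 for MRPL3, and points above 0 are higher in HCC1806.

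Members on 1 chromosome arm could differ from it and from each other. On 5p, MRPS30 (1.10 ± 0.088) and MRPL36 (0.57 ± 0.057) were higher in HCC1806, and the other 5p genes had a median of 0.80. MRPS25 on 3p was lower (-0.60 ± 0.084), where the arm's median was -1.01. On 2p, with a median of 0.81, MRPL33 was higher and MRPL35 lower in HCC1806, and MRPL53 (0.15 ± 0.076) and MRPL19 (0.13 ± 0.098) were not called. On 6p, with a median of -0.14, MRPL14, MRPL2 and MRPS10 were lower, MRPS18B was higher (0.37 ± 0.051, adjusted p = 7.22e-10) and MRPS18A was not called (-0.038 ± 0.079). Over all 76 members Pearson's r with the arm median was 0.31 and Spearman's rho 0.40, again as a description. MRPL36 overlaps NDUFS6 in the annotation.

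Other genes of mitochondrial translation moved singly. Of 5 subunits without an MRP symbol, 1, 2 and 1 rose and 0 fell in HCC1806 fusion, slippage and cytokinesis failure cells, and 1 fell and 0 rose after each route in MDA-MB-231. In HCC1806 these were CHCHD1 with fusion (0.30 ± 0.066), GADD45GIP1 with slippage (0.18 ± 0.049) and AURKAIP1 with slippage (0.31 ± 0.048) and cytokinesis failure (0.23 ± 0.048). In MDA-MB-231 PTCD3, a small subunit protein that binds RNA, fell by 0.22 ± 0.076 with fusion, 0.36 ± 0.076 with slippage and 0.26 ± 0.076 with cytokinesis failure. Parental cells had 28.8, 31.6 and 32.6 CPM of PTCD3 in HCC1806, against 109.6, 109 and 101 CPM in MDA-MB-231. DAP3, a GTP-binding protein of the small subunit, was called in none of the 6 comparisons with control, over which the list's medians ran from -0.18 to 0.15.

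Of 26 assembly factors, 1 fell in each of HCC1806 fusion and cytokinesis failure, the ribosomal RNA methyltransferase gene FTSJ2 (-0.17 ± 0.055 and -0.20 ± 0.054). In MDA-MB-231 RNMTL1 fell with fusion (-0.42 ± 0.13), RBFA fell with slippage (-0.42 ± 0.12) and NGRN rose with cytokinesis failure (0.23 ± 0.060). Of 18 translation factors, the elongation factor TSFM (0.23 ± 0.068) and the deformylase PDF (0.37 ± 0.095) rose and the initiation factor MTIF2 fell (-0.26 ± 0.063) in fused HCC1806 cells. TSFM (0.23 ± 0.066) and PDF (0.26 ± 0.094) also rose after cytokinesis failure, and 0 were called after slippage. In fused MDA-MB-231 cells 3 rose and 2 fell, with the initiation factor MTIF3 at 0.51 ± 0.088 and the translational activator TACO1 at -0.32 ± 0.094. MTIF3 rose with slippage (0.38 ± 0.088), and 0 were called after cytokinesis failure. Among 20 aminoacyl-tRNA synthetases YARS2 fell in HCC1806 cytokinesis failure (-0.31 ± 0.10) and CARS2 rose in MDA-MB-231 cytokinesis failure (0.31 ± 0.086). Medians over the 6 comparisons ran from -0.062 to -0.019 for assembly factors, -0.086 to 0.071 for translation factors and -0.028 to 0.13 for synthetases.

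Of 15 genes of mitochondrial DNA maintenance and transcription, 3 fell and 0 rose in HCC1806 after fusion and after cytokinesis failure. These were the packaging factor TFAM (-0.17 ± 0.052 and -0.27 ± 0.051), the helicase gene C10orf2 (-0.27 ± 0.091 and -0.45 ± 0.091) and the RNA-degrading PNPT1 (-0.28 ± 0.065 and -0.19 ± 0.063). In fused MDA-MB-231 cells 2 rose and 2 fell, among them the RNA polymerase POLRMT (-0.36 ± 0.11), and 0 were called after the other routes in that line or after slippage in HCC1806. The list's medians ran from -0.13 to 0.057. Of the regulators of mitochondrial biogenesis, 9 tested in HCC1806 and 10 in MDA-MB-231, MYC fell in HCC1806 by 0.27 ± 0.068 with fusion, 0.42 ± 0.070 with slippage and 1.05 ± 0.073 with cytokinesis failure. PPRC1, a coactivator of the PGC-1 family, fell with cytokinesis failure in HCC1806 (-0.43 ± 0.091) and rose with fusion in MDA-MB-231 (0.30 ± 0.11). NRF1, GABPA, ESRRA and YY1 were tested in both lines and called in none of the 6 comparisons. The list's medians ran from -0.18 to 0.13.

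Of the 77 cytosolic ribosomal proteins tested in each line, 54 rose and 1 fell with fusion in HCC1806 (median 0.14), 8 rose and 0 fell with slippage (0.058), and 12 rose and 3 fell with cytokinesis failure (0.035). In MDA-MB-231 42 rose and 0 fell with fusion (0.15), 3 rose and 3 fell with slippage (0.0061), and 0 rose and 6 fell with cytokinesis failure (-0.030). The difference between the cytosolic and the mitochondrial list was not tested.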

How the data were processed

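Polyadenylated RNA of 24 libraries (8 groups of 3 replicates) was read by TAGseq, per the labels' protocols. The authors deposited estimated counts and TPM per gene, and the submitters' processing notes name STAR, Salmon and GRCh38 without versions. The annotation, the strand setting and any use of molecular identifiers are not given in the sources used here. Estimated counts were rounded to whole numbers, and 0 columns were left unmapped. Genes were kept by edgeR's filterByExpr and scaled by TMM, and each line's 12 libraries were fitted with edgeR 4.0.16's robust quasi-likelihood model in R 4.3.3. Parental lines and differences between lines came from a fit of all 24. P-values were adjusted by Benjamini-Hochberg over all genes tested, 11467 in HCC1806, 11424 in MDA-MB-231 and 12563 overall. Scripts were tested on simulated data. Alternatives were DESeq2 1.42.0, its size factors within edgeR, library totals, no filter and a stricter filter (30 counts in 3 libraries), limma 3.58.1 on log2(TPM + 1) and log2(TPM + 0.1), GC and length correction, a replicate block, fits of only the libraries compared, and fits without each replicate or without the libraries that stood apart.

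Library depths of 2455707 to 4030297 counts limit how well low members are measured, and intervals cover counting error and replicate spread only. Members are named where they had the smallest adjusted p (up to 6 per direction and comparison with control), the largest change between parental lines (6 per direction), a call in every route of a line, or a called difference between lines. The largest uncalled change per line was also named, and other called members are given by their values, chosen after these were seen. Chromosome arms were divided at the centromere of the GRCh38 cytogenetic bands. The members and lists were chosen with earlier results of these data known. The 13 proteins encoded by mitochondrial DNA and the low-pass genome sequencing were not analysed here, nor were ICT1 and MRP63, subunits listed under older symbols outside the naming rule. The result of 1 gene of the other lists is not reported here.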

Additional observations from a re-analysis of the deposited data

Results flagged for a closer look

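For 8 members the change with a route differed between the lines by a test of the interaction term, HCC1806 minus MDA-MB-231, over all 24 libraries (edgeR's quasi-likelihood test with Benjamini-Hochberg adjustment). With fusion, MRPL38 differed by 0.76 ± 0.15 (adjusted p = 0.000206), from 0.32 in HCC1806 and -0.44 in MDA-MB-231, and MRPL55 by 0.52 ± 0.13 (adjusted p = 0.00351), from 0.25 in HCC1806 and -0.27 in MDA-MB-231. MRPL30 differed by 0.34 ± 0.095 (adjusted p = 0.01), from 0.17 in HCC1806 and -0.17 in MDA-MB-231. MRPL20 differed by -0.51 ± 0.076 (adjusted p = 4.42e-07), from -0.14 in HCC1806 and 0.36 in MDA-MB-231, and MRPL33 by -0.58 ± 0.089 (adjusted p = 6.77e-07), from -0.055 in HCC1806 and 0.52 in MDA-MB-231. The calls of MRPL38, MRPL55, MRPL20 and MRPL33 held under all 22 alternatives, and that of MRPL30 was lost without HCC1806 fusion replicate 3 (0.27, adjusted p = 0.0592).

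With slippage, MRPL38 differed by 0.76 ± 0.15 (adjusted p = 0.00037), from 0.44 in HCC1806 and -0.32 in MDA-MB-231, MRPS12 by 0.30 ± 0.088 (adjusted p = 0.0337), from 0.16 in HCC1806 and -0.14 in MDA-MB-231 and MRPL52 by 0.26 ± 0.080 (adjusted p = 0.047), from 0.068 in HCC1806 and -0.19 in MDA-MB-231. MRPL38 held under all 22 alternatives, MRPS12 under 9 and MRPL52 under 4. With cytokinesis failure, MRPL38 differed by 0.49 ± 0.15 (adjusted p = 0.026), from 0.31 in HCC1806 and -0.17 in MDA-MB-231 and MRPL11 by 0.30 ± 0.097 (adjusted p = 0.0471), from 0.070 in HCC1806 and -0.22 in MDA-MB-231, and they held under 10 and 7 of 22. The routes share their control libraries within a line.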

How the results depend on the processing

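Counts of called members that moved by over 1.5 times with another tool, scaling, filter or set of libraries come first. The shares of all genes called under the alternatives are not given here, so these counts stand without a background. DESeq2 gave 3 for HCC1806 fusion, 2 for HCC1806 slippage, 3 for HCC1806 cytokinesis failure, 7 for the doubled HCC1806 populations, 0 for MDA-MB-231 slippage, 13 for the doubled MDA-MB-231 populations, 1 for the slippage difference and 0 for the cytokinesis failure difference. DESeq2 size factors within edgeR gave 1 for the cytokinesis failure difference. Library totals gave 13 for the doubled HCC1806 populations, 1 for MDA-MB-231 slippage and 1 for the cytokinesis failure difference. No filter on low counts gave 3 for MDA-MB-231 cytokinesis failure. A stricter filter gave 2 for MDA-MB-231 cytokinesis failure and 1 for the cytokinesis failure difference. limma on log2(TPM + 1) gave 2 for HCC1806 fusion, 1 for HCC1806 slippage, 3 for HCC1806 cytokinesis failure, 6 for the doubled HCC1806 populations, 0 for MDA-MB-231 slippage, 14 for the doubled MDA-MB-231 populations, 11 for the fusion difference, 1 for the slippage difference and 1 for the cytokinesis failure difference. limma on log2(TPM + 0.1) gave the same counts, with 0 for HCC1806 slippage. The replicate number as a block gave 0 for MDA-MB-231 slippage. limma with a correction for GC content and length gave 1 for MDA-MB-231 cytokinesis failure, 8 for the fusion difference and 0 for the cytokinesis failure difference. Leaving out both libraries that stood apart gave 6 for MDA-MB-231 cytokinesis failure, 10 for the fusion difference and 1 for the slippage difference. A fit of only the 6 libraries compared gave 2 for MDA-MB-231 cytokinesis failure. Leaving out each replicate in turn gave, whether or not the count moved that far, 4 to 10 for HCC1806 fusion, 2 to 4 for HCC1806 slippage, 4 to 9 for HCC1806 cytokinesis failure, 12 to 22 for the doubled HCC1806 populations, 9 to 10 for MDA-MB-231 fusion, 0 to 3 for MDA-MB-231 slippage, 0 to 2 for MDA-MB-231 cytokinesis failure, 16 to 25 for the doubled MDA-MB-231 populations, 55 to 60 for the parental lines, 4 to 7 for the fusion difference, 1 to 5 for the slippage difference and 0 to 1 for the cytokinesis failure difference. In the comparisons for which the naming rules chose them, no member changed its direction in any setting run. The direction of members given only by their values was not followed through the settings. Subunit medians changed sign in MDA-MB-231 fusion with library totals (-0.010 large, -0.0088 small) and on TPM, in HCC1806 slippage on TPM, with the small subunit also without slippage replicate 3, and in HCC1806 cytokinesis failure for the small subunit on TPM. Placing subunits by structure moved no subunit count by over 1.5 times. Replicate numbers shared between groups are only numbers: deviations of same-numbered libraries had a median correlation of -0.041 in HCC1806 and -0.016 in MDA-MB-231, and besides MDA-MB-231 slippage the replicate block moved no count by over 1.5 times. The cause of these moves was not tested, and some settings also hold fewer libraries.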
